A study of Mus musculus with 48 samples.

Results

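The acute phase protein genes examined here are 10 mouse genes, Saa1, Saa2, Saa3, Lcn2, Hp, Hpx, Orm1, Orm2, Fgb and Apcs, out of 15541 genes listed in at least 1 of 6 tissue tables. They were taken by their gene symbol, with 1 entry for each Ensembl identifier. Roux-en-Y gastric bypass (RYGB), an operation that routes food from a small gastric pouch straight into the jejunum and past the duodenum, was compared to sham surgery in male C57Bl6 mice made obese with a high fat diet. Both groups received a liquid elemental diet and were killed after an overnight fast, 9 days after surgery. Liver, subcutaneous white adipose tissue (WAT) and gastrocnemius muscle had 4 RYGB and 4 sham libraries each, scraped duodenal and jejunal villi had 3 and 4, and scraped ileal villi had 5 and 5. The labels give no genotype or drug that differs between the groups, and the diets and the fast were shared by all mice. No matching of the sham mice for weight or food intake is given in the labels, so surgery, intake and weight loss cannot be told apart in these comparisons. The p-values measure the spread between these libraries, which the labels number within a group without saying how the mice were housed or paired.

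In the acute phase response, cytokines such as IL-6, IL-1 and oncostatin M act on hepatocytes through STAT3, C/EBP and NF-kB factors, and the liver changes its output of plasma proteins. Proteins that rise in plasma are called positive acute phase proteins, and those that fall, such as albumin and transthyretin, negative ones. Serum amyloid A and serum amyloid P are major acute phase proteins of the mouse. Some of these genes are also used outside the liver, in adipocytes, gut epithelium, macrophages and neutrophils.

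All 10 genes were listed in the liver. In WAT 5 were listed (Hp, Orm1, Lcn2, Saa3 and Hpx), in the jejunum 3 (Saa1, Saa3 and Lcn2), in the ileum Saa1 alone, in muscle Hp alone, and in the duodenum none. A listed gene reached 1 CPM (counts of a gene scaled to a common library total) in a number of libraries no lower than the size of the smaller group, so a gene that is not listed may still be expressed at a low level. Every listed member passed the minimum of 1 CPM on average and was tested. Library depth is unknown, since the tables hold CPM rounded to 0.1. The 10 liver members together made up 2.01% to 3.89% of all listed CPM in RYGB livers and 1.41% to 2.92% in sham livers. The labelled tissues carried their own markers: the 10 hepatocyte markers were all listed in the liver, the 7 adipocyte markers in WAT, the 8 skeletal muscle markers in muscle, and the 8 enterocyte markers in each villus table.

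The 3 serum amyloid A genes lie close together on chromosome 7 of GRCm38 (GENCODE M21), Saa3 at chr7:46711998-46715700 and Saa1 at chr7:46740497-46742980 on the minus strand and Saa2 at chr7:46751790-46754313 on the plus strand. The promoters of these genes and of Lcn2 (chr2:32384633-32388252, minus strand) are shown. In the liver, Saa3 and Lcn2 were the members that passed the test. Within each group of livers, Saa1, Saa2 and Lcn2 were highest in the same replicate, whereas Saa3 was highest in another. Each sequence is the 250 bases before the RefSeq start site (GRCm38.p6), read 5′ to 3′ along the gene. Capitals mark matches to the C/EBP motif TTGCNNAA on either strand.
Saa1, chr7:46742981-46743230, minus strand: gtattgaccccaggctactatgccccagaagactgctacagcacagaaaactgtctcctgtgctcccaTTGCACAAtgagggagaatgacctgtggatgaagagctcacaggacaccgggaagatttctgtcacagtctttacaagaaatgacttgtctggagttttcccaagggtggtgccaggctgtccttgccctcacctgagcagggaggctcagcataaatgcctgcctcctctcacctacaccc
Saa2, chr7:46751583-46751832, plus strand: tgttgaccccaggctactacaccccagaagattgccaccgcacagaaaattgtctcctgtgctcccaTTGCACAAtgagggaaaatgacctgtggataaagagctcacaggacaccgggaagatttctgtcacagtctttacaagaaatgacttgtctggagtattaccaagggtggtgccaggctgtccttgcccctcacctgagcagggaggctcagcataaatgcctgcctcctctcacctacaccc
Saa3, chr7:46715677-46715926, minus strand: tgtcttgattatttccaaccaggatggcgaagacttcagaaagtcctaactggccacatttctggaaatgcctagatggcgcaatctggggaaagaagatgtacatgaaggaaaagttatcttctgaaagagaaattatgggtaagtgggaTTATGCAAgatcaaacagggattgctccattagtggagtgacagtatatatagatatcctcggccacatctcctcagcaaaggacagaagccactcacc
Lcn2, chr2:32387740-32387989, minus strand: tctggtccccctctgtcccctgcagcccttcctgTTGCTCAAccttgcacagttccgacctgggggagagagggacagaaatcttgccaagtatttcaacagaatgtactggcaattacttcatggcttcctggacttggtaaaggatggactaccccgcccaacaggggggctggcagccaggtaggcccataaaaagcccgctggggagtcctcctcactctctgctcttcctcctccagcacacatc
The Lcn2 window lies inside the GENCODE extent of the gene and the Saa2 and Saa3 windows reach into theirs, because GENCODE places their outermost starts farther upstream than RefSeq. In a global alignment the Saa1 and Saa2 windows were identical in 238 of 251 columns (94.8%). Saa1 and Saa3 were identical in 145 of 276 columns (52.5%).

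A promoter was found for 8 of the 10 members, without Hp and Orm1. Of these, 7 held the C/EBP motif (Saa1, Saa2, Saa3, Lcn2, Hpx, Orm2 and Fgb), compared to 3142 of all 32851 promoter windows of the same length (9.56%). The STAT motif TTCNNNGAA was found in 2 of the 8, Fgb and Apcs, and in 7.02% of all windows. An NF-kB consensus was found in none of the 8 and in 3.9% of all windows. These are matches of letters, and the motifs were chosen with the sequences in view.

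In the liver, Saa3 and Lcn2 were upregulated after RYGB and the other 8 members did not pass the test. Saa3 was about 6-fold higher in mean CPM, with no overlap between groups, and Lcn2 about 5-fold higher with overlapping groups. Saa1 and Saa2, the serum amyloid A genes best known as liver products, had lower means after RYGB but varied so widely among sham livers that the difference was not established. A gene was called upregulated or downregulated when its limma p-value, adjusted over all genes of the tissue by the Benjamini-Hochberg method, was under 0.05 and its fold change was at least 1.5, on the scale of log2(CPM + 1). Among the 11807 genes tested in the liver, 836 (7.08%) were called, 684 higher (5.79%) and 152 lower (1.29%). The 2 of 10 members called were both higher.

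**Figure D1:**
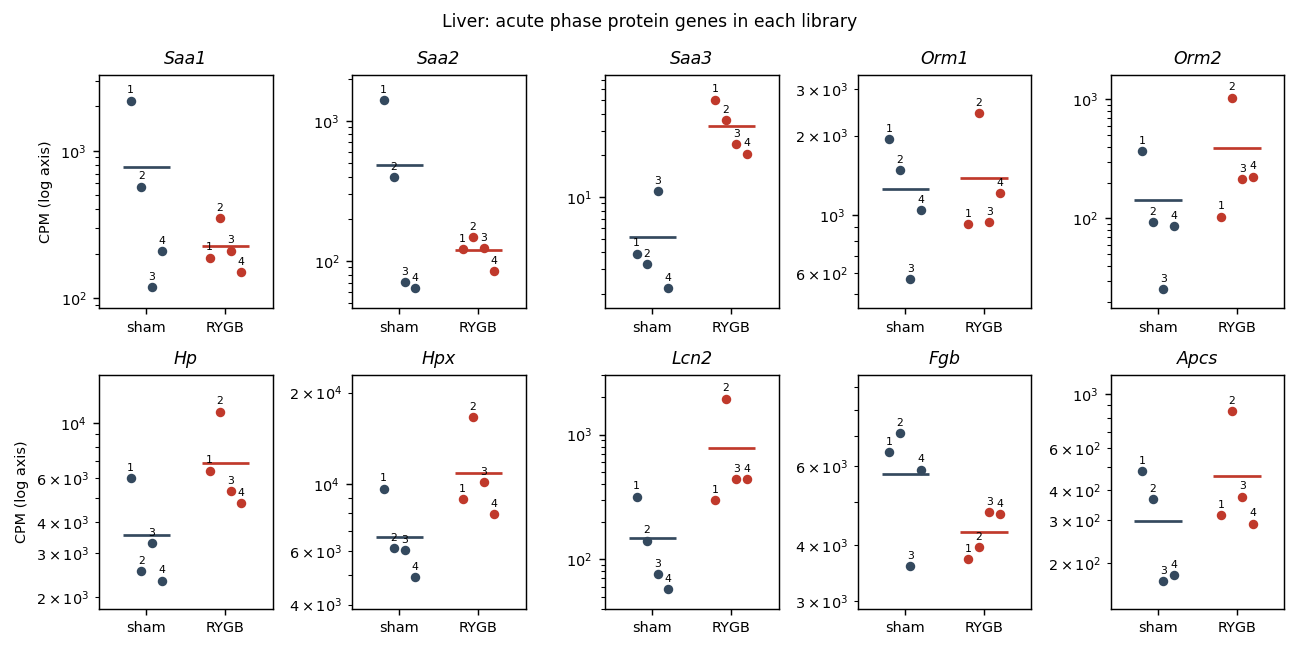
CPM of the 10 genes in the 4 sham and 4 RYGB livers on a log axis, 1 panel per gene, with points numbered by replicate and lines at group means. Saa3 lies between 20.6 and 50.6 CPM after RYGB, above every sham liver, while the highest point of 8 of the genes is replicate 2 in the RYGB group and replicate 1 in the sham group.

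Saa3 encodes the serum amyloid A made mainly by macrophages, adipocytes and epithelia. It was at 50.6, 36, 24.1 and 20.6 CPM in RYGB livers 1 to 4 and at 3.9, 3.3, 11.1 and 2.2 CPM in sham livers 1 to 4. Every RYGB liver was above every sham liver, which held for 13.4% of all genes tested in this tissue. This gave a log2 fold change of 2.58 (SE 0.38; adjusted p = 0.00534, limma), with means of 32.8 ± 13.6 CPM after RYGB and 5.13 ± 4.05 CPM after sham (SD, n = 4 each). The call held when any 1 library was left out, with adjusted p between 0.000561 and 0.0197.

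Lcn2 encodes lipocalin 2, which binds the iron carriers of bacteria and is made by hepatocytes in inflammation and stored in neutrophil granules. It was at 298.1, 1946.3, 439.9 and 441 CPM in RYGB livers 1 to 4 and at 317.6, 140.6, 76.2 and 57.2 CPM in the sham livers. RYGB liver 2 stood far above the rest, and RYGB liver 1 was just under the highest sham liver. Lcn2 had a log2 fold change of 2.28 (SE 0.61; adjusted p = 0.0427, limma), close to the threshold. The call was lost without RYGB replicate 2 (adjusted p = 0.061), 3 (0.0913) or 4 (0.0586), and without sham replicate 2 (0.0788), 3 (0.0869) or 4 (0.097). It was also lost with the sequencing lane as a covariate (adjusted p = 0.0532) and with median-ratio scaling (0.0712), and the log2 fold change stayed between 1.7 and 2.76 in all fits without 1 library. With both RYGB liver 2 and sham liver 1 left out, a choice made after seeing the data, it was 2.17 (adjusted p = 0.00328, limma).

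Markers of neutrophils and macrophages were higher in the same RYGB livers. The 8 neutrophil markers listed, of 13, summed to 43.1, 674.8, 99.7 and 44.2 CPM in RYGB livers 1 to 4 and to 13.4 to 22 CPM in the sham livers. Retnlg, Cxcr2, Ngp and Ltf were listed through the RYGB livers alone, so part of the difference between these sums was set by the listing. RYGB liver 2, the highest for Lcn2, also had the highest sum. Of the 8 markers, 4 were called higher (Retnlg, Cxcr2, Csf3r and S100a9), compared to 5.79% of all liver genes tested. No sham liver reached 1 CPM for Retnlg or Cxcr2, so their direction was set by the listing and the count cannot be read against this share. Csf3r and S100a9 reached 1 CPM in every liver. Ly6g, Mpo, Elane, Camp and Mmp8 were not listed. The 9 macrophage markers summed to 1065 to 3325 CPM after RYGB and to 475 to 895 CPM after sham, and 3 were upregulated (Cd68, Itgam and Lyz2). The 4 fibroblast markers, of which Col1a1, Pdgfra and Lum were upregulated, summed to 273 to 514 CPM after RYGB and 211 to 273 CPM after sham. None of the 10 hepatocyte markers was called, and their sums were 91639 to 122583 CPM after RYGB and 81602 to 101315 CPM after sham. The part of these cells in the levels of Lcn2 and Saa3 was not tested. In bulk tissue, a change in the number of cells of a type and a change in RNA per cell cannot be told apart.

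**Figure D2:**
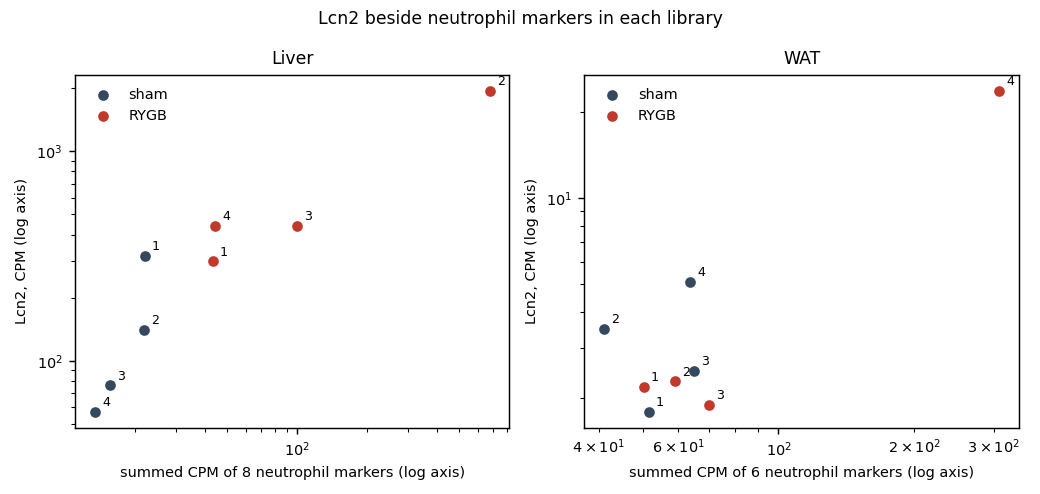
Lcn2 (CPM, log axis) against the summed CPM of the listed neutrophil markers (log axis) in each liver and WAT library, numbered by replicate. Retnlg, Cxcr2, Ngp and Ltf in the liver and Cxcr2 in WAT were listed through the RYGB libraries alone. RYGB liver 2 (1946.3 CPM of Lcn2, marker sum 674.8) and RYGB WAT 4 (23.7 CPM, marker sum 308.1) are the highest on both axes in their tissue.

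Saa1 and Saa2 encode the serum amyloid A proteins that the liver secretes onto high density lipoprotein. Saa1 was at 187.8, 348.8, 209 and 149.9 CPM in the RYGB livers and at 2191.6, 569.3, 117.5 and 206.4 CPM in the sham livers. Saa2 was at 121.8, 147.1, 123.4 and 85.1 CPM and at 1408.7, 395.7, 70.7 and 64.2 CPM. For both, sham livers 1 and 2 were above every RYGB liver, and the other sham livers fell within or below the RYGB range. The log2 fold change was -0.97 (SE 0.72; adjusted p = 0.409, limma) for Saa1 and -0.94 (SE 0.80; adjusted p = 0.478) for Saa2. Without sham liver 1 these shrank to -0.17 and -0.06. The ratio of Saa2 to Saa1 was between 0.311 and 0.695 in all 8 livers, and it could depend on how reads shared by these similar genes were assigned. The ratio of Saa3 to Saa1, looked at after the values were seen, was 0.103 to 0.269 in RYGB livers and 0.00178 to 0.0945 in sham livers, without overlap.

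Hp and Hpx encode haptoglobin and hemopexin, which bind free hemoglobin and free heme in plasma. Hp was at 6429.8, 11082.7, 5319.5 and 4763.6 CPM after RYGB and at 6011.5, 2539, 3277.1 and 2326 CPM after sham. Only sham liver 1 reached the RYGB range. The log2 fold change of Hp was 0.99 (SE 0.34; adjusted p = 0.0944, limma), and Hp was called when sham liver 1 was left out (1.28; adjusted p = 0.0488), as well as when RYGB liver 2 and sham liver 1 were both left out (1.02; adjusted p = 0.0388). Hpx was at 8897.5, 16580.8, 10163 and 7960.4 CPM after RYGB and at 9646.9, 6157.2, 6068.5 and 4942.4 CPM after sham, with a log2 fold change of 0.69 (SE 0.30; adjusted p = 0.165). Here too sham liver 1 was the only sham liver inside the RYGB range.

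Orm1 and Orm2 encode alpha-1-acid glycoproteins, plasma carriers of lipophilic compounds. Orm2 was at 103.6, 1031.9, 212.8 and 224.7 CPM after RYGB and at 369.6, 92.4, 25.3 and 86.7 CPM after sham. All RYGB livers were above sham livers 2 to 4, and sham liver 1 was above all RYGB livers except liver 2. Orm2 had a log2 fold change of 1.51 (SE 0.78; adjusted p = 0.241, limma). Orm1 was at 925, 2439, 940.7 and 1213.9 CPM after RYGB and at 1935, 1480.7, 570.4 and 1042.3 CPM after sham, and its log2 fold change of 0.15 (SE 0.39; adjusted p = 0.834) changed sign with median-ratio scaling (-0.003), without RYGB replicate 2 (-0.17) and without sham replicate 3 (-0.19). The ratio of Orm2 to Orm1 ranged from 0.112 to 0.423 after RYGB and from 0.0444 to 0.191 after sham, and it carries the same limit on shared reads.

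Apcs and Fgb encode serum amyloid P, a pentraxin, and the beta chain of fibrinogen, the precursor of the clot. Apcs was at 315.2, 853.9, 376.3 and 291.2 CPM after RYGB and at 481.8, 366.5, 168.1 and 177.6 CPM after sham, with overlapping groups and a log2 fold change of 0.62 (SE 0.40; adjusted p = 0.338, limma). Fgb was at 3733.9, 3960.5, 4747.7 and 4696.4 CPM after RYGB and at 6446.7, 7120.5, 3589.2 and 5897.3 CPM after sham. Sham livers 1, 2 and 4 were above all RYGB livers, and sham liver 3 was below them all, and the log2 fold change was -0.39 (SE 0.24; adjusted p = 0.316). Fga and Fgg, the other fibrinogen chains, named after their values were seen, had log2 fold changes of -0.36 (SE 0.25; adjusted p = 0.373) and -0.38 (SE 0.22; adjusted p = 0.285). The ratio of Fgb to Hp, also chosen after seeing the values, was 0.357 to 0.986 in RYGB livers and 1.07 to 2.8 in sham livers.

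Many members were highest in the same livers. Within the RYGB group 8 of 10 (Saa1, Saa2, Lcn2, Hp, Hpx, Orm1, Orm2 and Apcs) were highest in liver 2, and within the sham group the same 8 were highest in liver 1. Of all liver genes tested, 31.4% were highest in RYGB liver 2, 9.77% in sham liver 1, and 4% in both. Saa3 was highest in RYGB liver 1 and sham liver 3, and Fgb in RYGB liver 3 and sham liver 2. The median log2 fold change of the 10 members was 0.65, beside 0.13 over all liver genes tested, and 7 were positive. Median-ratio scaling moved the median of all genes from 0.13 to -0.01. By the likeness of their within-group deviations over the 8 livers, the non-member genes of at least 10 CPM nearest to Lcn2 were Csnk1g3 (Pearson r = 0.975), Cd302 (0.955), Isyna1 (0.951), Alg2 (0.937) and Pelo (0.924), the highest of 8053 genes searched. These values rest largely on 1 library of extreme Lcn2 level.

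**Figure D3:**
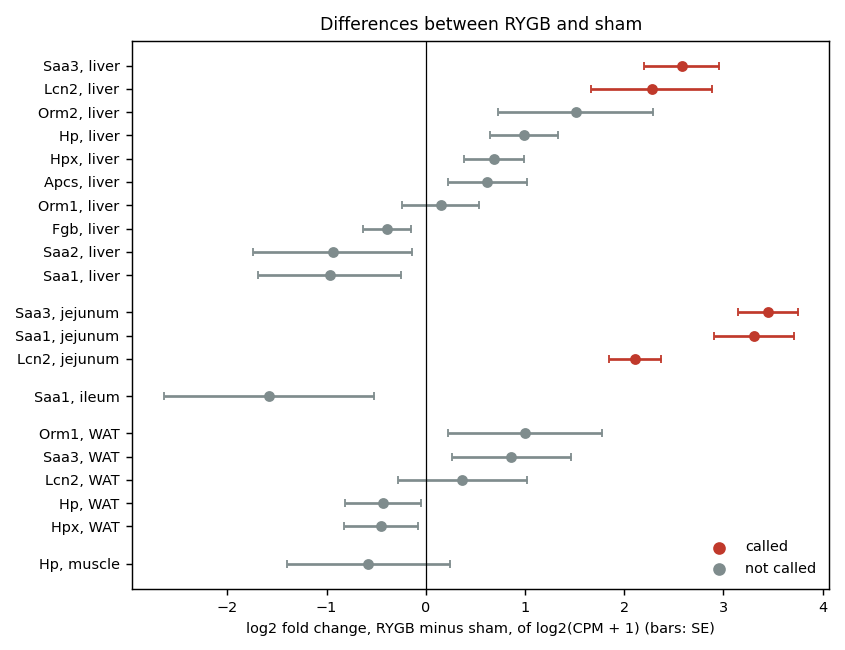
Log2 fold change of each listed member between RYGB and sham on the log2(CPM + 1) scale, with SE bars, by tissue. The 5 called values are Saa3 (2.58) and Lcn2 (2.28) in the liver and Saa3 (3.45), Saa1 (3.31) and Lcn2 (2.11) in the jejunum.

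In the jejunum Saa1 was upregulated after RYGB, about 15-fold in mean CPM. Saa1 reached 1 CPM in all 3 RYGB and all 4 sham samples. Saa3 and Lcn2 were also called higher, but no sham sample reached 1 CPM for either, so they entered the table through the 3 RYGB samples alone, and genes this low after sham are listed only where they are higher after RYGB. The number of members called in the jejunum is therefore not evidence on the 10 genes as a group. Among 10854 genes tested in the jejunum, 1058 (9.75%) were called, 501 higher (4.62%) and 557 lower (5.13%). Every RYGB library was above every sham library for Saa1, as for 9.75% of all genes tested.

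Saa1 was at 14.6, 38.7 and 50.9 CPM in the RYGB jejunum and at 2.1, 3.9, 1.5 and 1.8 CPM in the sham jejunum, a log2 fold change of 3.31 (SE 0.40; adjusted p = 0.0016, limma). With the limit on listing above, Saa3 was at 6.7, 16.1 and 14.4 CPM compared to 0, 0.3, 0.4 and 0 CPM, a log2 fold change of 3.45 (SE 0.30; adjusted p = 0.000414). Lcn2 was at 2.1, 5.3 and 4.8 CPM compared to 0.1, 0.1, 0.2 and 0.1 CPM, a log2 fold change of 2.11 (SE 0.26; adjusted p = 0.00179). RYGB replicate 1 was the lowest of its group for each gene, and for Saa1 it was still above every sham sample. For Saa3 and Lcn2 such a separation follows from their listing through the RYGB samples alone. The call of Saa1 held without any 1 library, with adjusted p of at most 0.01 (limma). RYGB replicate 2 was the only jejunum sample on lane 2. The fit with the lane as a covariate (adjusted p = 0.00756) therefore repeats the fit without RYGB replicate 2 and says nothing further on lane. The sham values of Saa3 and Lcn2 lie at the rounding step of the tables, so the size of their change depends on the pseudocount. It was 5.79 for Saa3 and 4.13 for Lcn2 with a pseudocount of 0.1. The ratio of Saa3 to Saa1 was 0.283 to 0.459 in the RYGB samples and 0 to 0.267 in the sham samples.

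The neutrophil markers other than Ltf were not listed in the jejunum, S100a8 and S100a9 included. Ltf, lactoferrin, which epithelia also make, was at 8.8 to 25.2 CPM after RYGB and 1.7 to 6 CPM after sham and was upregulated. The 4 macrophage markers listed, of 9, summed to 35.6 to 41 CPM after RYGB and 18 to 30.1 CPM after sham, with none called. Among the 8 enterocyte markers Lct and Apoa4 were downregulated, and the 8 summed to 37291 to 59431 CPM after RYGB and 67999 to 86053 CPM after sham. The lower sum was mostly that of Apoa4, and 4 of the 8 had a positive and 4 a negative log2 fold change. Of the hepatocyte markers, albumin (Alb) was not listed and 3 of 10 were. Among these, Tat was called higher (2.2 to 45 CPM after RYGB and 0.3 to 0.7 CPM after sham, listed through the RYGB samples alone) and Ambp lower (1.4 to 3 CPM and 3.8 to 6.8 CPM). The part of these markers in the values of Saa1, Saa3 and Lcn2 was not tested. The genes nearest to Saa1 by within-group deviations over the 7 libraries were Prdm16 (Pearson r = 0.991), Ppp2r1a (0.979), Shtn1 (0.978), Clmn (0.975) and Prom1 (0.972), of 6961 genes searched. The highest values of so wide a search over so few libraries are large by selection, and they were not tested.

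In the ileum, only Saa1 was listed and it was not called. Saa1 reached 1 CPM in 5 sham and 4 RYGB libraries, so it was listed through the sham libraries alone, which favours a negative log2 fold change. It was at 23.7, 1.9, 40.9, 6.7 and 0.4 CPM after RYGB and at 10, 89.2, 79.6, 31.6 and 2 CPM after sham, so the values spanned a wide range in both groups and overlapped. The log2 fold change was -1.58 (SE 1.06; adjusted p = 0.366, limma), whereas in the jejunum it was 3.31. The difference between these segments was not tested, since their tables were normalised separately. In the ileum 650 of 10735 genes (6.05%) were called, 176 higher (1.64%) and 474 lower (4.42%). All RYGB ileum libraries were on lane 1 and all sham libraries on lanes 2 and 3, so that surgery cannot be told apart from lane there. In the duodenum no member was listed, and 1 of 10850 genes (0.00922%) was called.

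**Figure D4:**
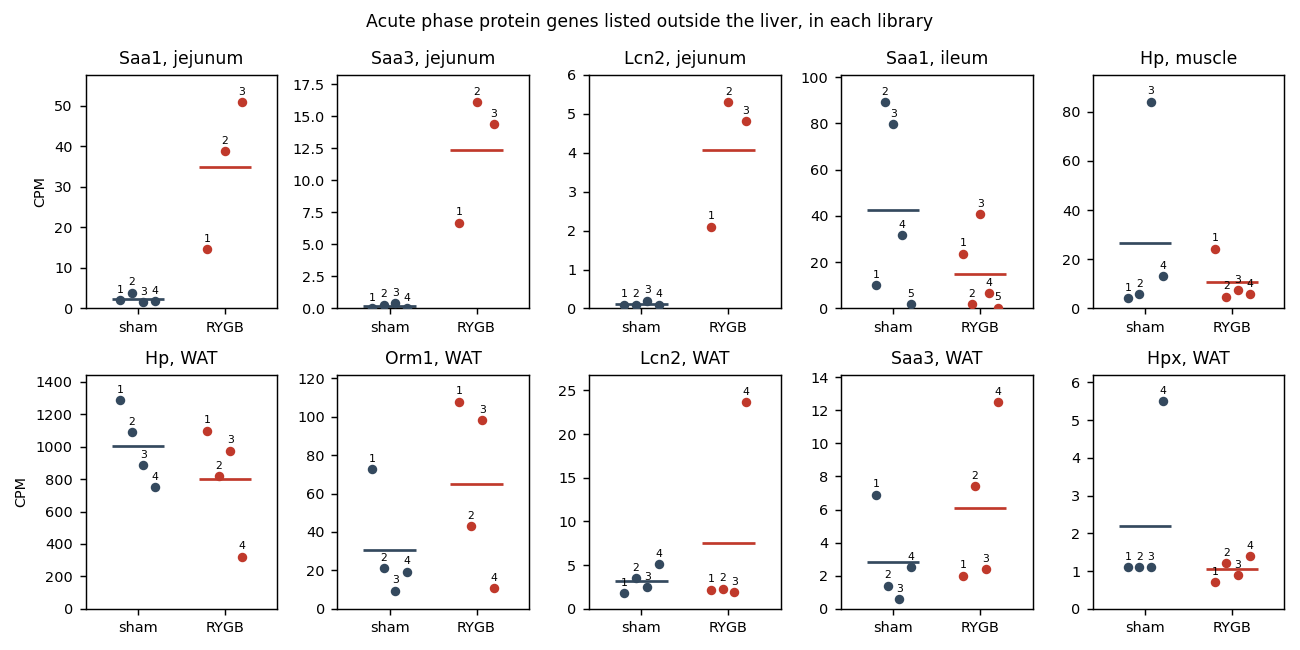
CPM of each member listed outside the liver, in each sham and RYGB library, with points numbered by replicate and lines at group means. In the jejunum every RYGB point is above every sham point for Saa1, Saa3 and Lcn2, while in ileum, WAT and muscle the groups overlap. For Saa3 and Lcn2 this separation follows from their listing through the RYGB samples alone.

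In WAT, none of the 5 listed members was called, although 3231 of 13379 genes (24.1%) were, 1996 higher (14.9%) and 1235 lower (9.23%). Hp, which adipocytes also secrete, was at 1099, 817.3, 976.3 and 321.2 CPM after RYGB and at 1288.3, 1092.5, 888.5 and 748.9 CPM after sham. RYGB replicate 4 was the lowest, and the log2 fold change was -0.43 (SE 0.38; adjusted p = 0.377, limma). It was -0.68 with the lane as a covariate (adjusted p = 0.0542) and -0.04 without RYGB replicate 4 (adjusted p = 0.897). Orm1 was at 107.9, 43, 98.2 and 10.9 CPM after RYGB and at 72.7, 21.3, 9.4 and 19.4 CPM after sham, a log2 fold change of 1.00 (SE 0.78; adjusted p = 0.319), which was 0.21 with the lane as a covariate (adjusted p = 0.774) and 0.60 to 1.68 without 1 library. High and low values of Orm1 occurred in both groups.

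Lcn2 in WAT was at 2.2, 2.3, 1.9 and 23.7 CPM after RYGB and at 1.8, 3.5, 2.5 and 5.1 CPM after sham. RYGB replicate 4 stood apart, and without it the log2 fold change went from 0.37 (adjusted p = 0.664, limma) to -0.37 (adjusted p = 0.265). The same library had a neutrophil marker sum of 308.1 CPM over 6 markers, compared to 41.1 to 70 CPM in the 7 others, and a lower Hp. It also had the lowest sum of the adipocyte markers (5001 CPM) and the highest sum of the B cell markers (1500 CPM). Saa3 was at 2, 7.4, 2.4 and 12.5 CPM after RYGB and at 6.9, 1.4, 0.6 and 2.5 CPM after sham, a log2 fold change of 0.86 (adjusted p = 0.269). Hpx was at 0.7, 1.2, 0.9 and 1.4 CPM and at 1.1, 1.1, 1.1 and 5.5 CPM, a log2 fold change of -0.45 (adjusted p = 0.341). Saa3 was listed in WAT through the RYGB libraries alone and Hpx through the sham libraries alone, which favours the direction that each had. The 4 B cell markers were called higher, with sums of 552 to 1500 CPM in RYGB WAT compared to 5 to 12.5 CPM in sham WAT. Among these, Cd79a was listed through the RYGB libraries alone. The 7 adipocyte markers summed to 5001 to 11541 CPM after RYGB and 9764 to 13079 CPM after sham. The 8 macrophage markers listed, of 9, summed to 2068 to 2252 CPM after RYGB and 1724 to 3101 CPM after sham. Of these, 2 were called higher and 4 lower. The part of these cells in the WAT values was not tested.

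In muscle, Hp was at 24.3, 4.8, 7.5 and 5.8 CPM after RYGB and at 4.1, 5.8, 84.1 and 13.2 CPM after sham. The highest values were sham replicate 3 and RYGB replicate 1, and the same libraries had the highest sums of the 7 adipocyte markers, 707.9 and 259.7 CPM, compared to 45 to 112.6 CPM in the 6 others. The log2 fold change was -0.58 (adjusted p = 0.803, limma) and turned positive without sham replicate 3 (0.28) and with the lane as a covariate (1.04). Only replicates 1 and 2 of each group shared a lane, so the lane fit rests on them and gives sham replicate 3 no weight. No gene was called in muscle (0.0%, 0 of 11966), with 1746 genes at an unadjusted limma p under 0.05.

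Genes of the pathway around the members were also compared, in 4 lists. Over all genes tested, 5.79% were called higher in the liver, 4.62% in the jejunum, 14.9% in WAT and 1.64% in the ileum. Called lower were 1.29%, 5.13%, 9.23% and 4.42%, respectively. The counts of the lists were not tested against these shares. Of the 20 tested genes of inducing cytokines, their receptors and transcription factors in the liver, 5 were upregulated and none was downregulated, with a median log2 fold change of 0.43. They were Il1b (1.53, adjusted p = 0.0138, limma), Il6ra (0.96, 0.0221), Nfkbiz (0.94, 0.0292), Il1a (0.82, 0.0449) and Osmr (0.76, 0.0499), which encode the IL-1 cytokines, the IL-6 receptor, the oncostatin M receptor and an NF-kB cofactor. Il1b was at 7.1 to 21.3 CPM after RYGB and 2.3 to 3.2 CPM after sham, and it was called in every alternative in which it was tested. The count fell to 1 without RYGB replicate 3 and with median-ratio scaling, to 3 without RYGB replicate 2, and to 2 with RYGB replicate 2 and sham replicate 1 both left out. Stat3 (0.15, adjusted p = 0.366) and Socs3 (0.26, adjusted p = 0.632), named after their values were seen, were not called.

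Of the 26 other positive acute phase protein genes in the liver, 6 were upregulated and none was downregulated. Among the called genes the largest changes were in Cd14 (2.26, adjusted p = 0.0186, limma), a lipopolysaccharide receptor, Il1rn (1.93, 0.00291), the IL-1 receptor antagonist, Steap4 (1.44, 0.00697), a metalloreductase, and Cp (1.04, 0.0145), ceruloplasmin. Mt2 (2.36, adjusted p = 0.0699) and Mt1 (1.83, adjusted p = 0.0677), the metallothioneins, were not called. C3 and Lbp were the other called genes, with calls lost in 3 and 6 of the 8 fits without 1 library, and Cd14 lost its call without sham replicate 1 or 4, with adjusted p up to 0.0557. The median of the list was 0.07, below the 0.13 of all genes, and Crp, Serpina3n, Hamp and Itih4, named after their values were seen, had log2 fold changes between -0.09 and 0.20. The count fell to 3 without sham replicate 4 and to 4 with median-ratio scaling. Of the 10 negative acute phase protein genes none was called (median 0.23), Alb at 0.24 (adjusted p = 0.722) and Ttr at -0.42 (adjusted p = 0.271), both named after their values were seen, included. Of 10 receptors and clearance partners Tlr2, a receptor of bacterial lipoproteins, was upregulated (1.54, adjusted p = 0.00582), the number called being 3 without RYGB replicate 2, while Cd163 and Lrp1, which clear the haptoglobin and hemopexin complexes, named after their values were seen, had log2 fold changes of -0.65 (adjusted p = 0.549) and -0.14 (adjusted p = 0.564).

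**Figure D5:**
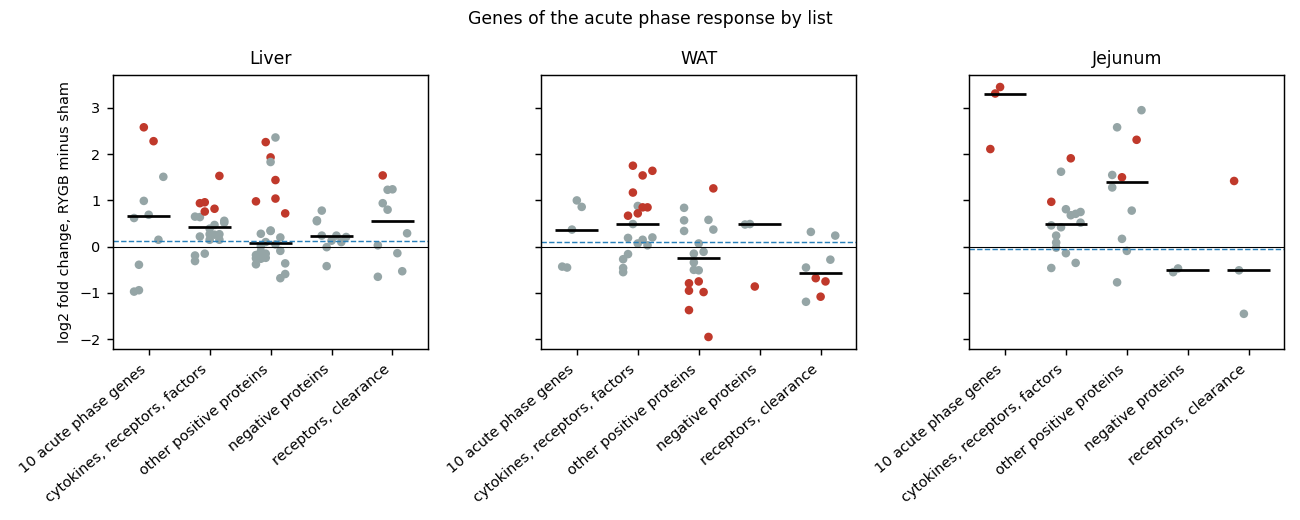
Log2 fold change of each tested gene in the 10 acute phase genes and 4 pathway lists in liver, WAT and jejunum, called genes in red, list medians as black bars and the median of all genes as a dashed line. The black bar of the other positive proteins lies at 0.07 in the liver and -0.25 in WAT, and genes listed through 1 group alone, such as Saa3, Lcn2 and Lrg1 in the jejunum, are included.

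In the jejunum 2 of 16 inducer genes were upregulated, Nfkbia, an inhibitor of NF-kB that NF-kB itself induces (1.91, adjusted p = 0.0334, limma), and Socs3, a feedback inhibitor of STAT3 (0.97, adjusted p = 0.0118). Nfkbia lost its call when RYGB replicate 2 or 3 or sham replicate 2, 3 or 4 was left out, with adjusted p up to 0.112. Its loss with the lane as a covariate (1.39, adjusted p = 0.111) repeats the loss without RYGB replicate 2, which was alone on its lane. Of 10 other positive acute phase protein genes Lrg1 (2.31, adjusted p = 0.0031) and Cd14 (1.5, adjusted p = 0.00492) were called higher. Lrg1 was at 2.4 to 9.1 CPM after RYGB and 0 to 0.2 CPM after sham and, like Saa3 and Lcn2, was listed through the RYGB samples alone, whereas Cd14 reached 1 CPM in every sample. Hmox1, heme oxygenase, was called higher among 3 receptors and clearance partners (1.42, adjusted p = 0.02) and reached 1 CPM in 1 sham sample only. It lost its call without RYGB replicate 2 or sham replicate 1, 3 or 4. The loss with the lane as a covariate (adjusted p = 0.0855) again repeats that without RYGB replicate 2. Neither of the 2 negative acute phase genes tested was called.

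In WAT, 8 of 19 inducer genes were upregulated and none was downregulated, led by Il1a (1.75, adjusted p = 0.0141, limma), Osm (1.64, 0.00602), Tnf (1.54, 0.00478) and Socs3 (1.17, 0.0334). The count fell to 4 without sham replicate 2, and Socs3 lost its call in 6 of 8 fits without 1 library. Of 18 other positive acute phase protein genes 6 were downregulated, among them Il1rn (-1.95, adjusted p = 0.0154), Lbp (-1.37, 0.0239) and Mt2 (-0.98, 0.0388), and Itih3 was upregulated (1.26, 0.0238). Il1rn and Steap4 were thus downregulated in WAT and upregulated in the liver, a difference between tissues that was not tested. Without 1 library, the calls in WAT were lost in 6 of 8 fits for Mt2, Steap4 and Hmox1, in 3 for Lbp and Itih3 and in 2 for Scarb1. With the lane as a covariate, calls were lost by Il1rn (adjusted p = 0.0529), Mt2 (0.112), Hmox1 (0.0936) and Scarb1, whose fold change was then under 1.5. Il1a, Osm and Itih3 were listed in WAT through the RYGB libraries alone. Trf, transferrin, was downregulated among 3 negative acute phase genes (-0.86, adjusted p = 0.0181), and Lrp1, Scarb1 and Hmox1 among 8 receptors and clearance partners (-1.08, -0.75 and -0.68, adjusted p = 0.00972, 0.0206 and 0.046).

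In the ileum Mt1 (1.83, adjusted p = 0.0319, limma) and Cd14 (1.03, adjusted p = 0.0316) were upregulated and C4b (-1.86, adjusted p = 0.0145, listed through the sham libraries alone) and Lrp1 (-0.69, adjusted p = 0.011) were downregulated among the 4 lists. The calls of Mt1 and Cd14 were lost in 6 and 7 of the 10 fits that left out 1 library. As for Saa1, surgery cannot be told apart from lane for any of these ileum calls. In muscle and duodenum none of the listed genes was called.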

How the data were processed

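Liver, WAT, gastrocnemius muscle and villi of 3 gut segments were measured by RNA-seq in 23 RYGB and 25 sham libraries prepared with a stranded mRNA kit. The authors deposited 1 table per tissue of CPM values (counts scaled to a common library total) rounded to 0.1, with repeated or incomplete lines in some of them. Per the labels, GRCm38 and HTSeq were used; the aligner and the annotation are not given in the sources used here. Lines that repeated a gene held equal values and were used once (1771 in all), and 12 incomplete liver lines and 4 WAT lines that were not a gene were left out. Column sums were 925122 to 998777, and depth is unknown, so no count model was run.

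Within a tissue, the RYGB and sham libraries entered a limma fit (version 3.58.1, R 4.3.3, trended empirical Bayes) of log2(CPM + 1), limited to genes whose mean reached 1 CPM, with Benjamini-Hochberg adjustment over every gene fitted. The fit was tested on simulated data. A DEG had an adjusted p under 0.05 and a fold change of at least 1.5. Tissues were not compared by a test. The 10 members, the pathway and marker lists and the tests were chosen with earlier results of these data known. Every member was named in every tissue that listed it. The rule for each pathway list was to name the called genes, at most 4 with the largest change per tissue; further called genes (in the liver Osmr, C3 and Lbp, in WAT Steap4) and genes that were not called were named after their values were seen. Alternatives were a pseudocount of 0.1, no minimum or a mean of at least 10 CPM, median-ratio scaling, adjusted p alone, the lane as a covariate, a replicate block, and leaving out each library. The deviations of same-numbered RYGB and sham libraries correlated between -0.281 and 0.389, in no tissue above 0.1 for every number, so the numbers were not treated as pairs. Promoters came from RefSeq (GRCm38.p6) and were aligned with Biopython 1.88. Python 3.11.15 with pandas 2.3.3 and numpy 2.4.6 prepared the tables.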

Additional observations from a re-analysis of the deposited data

Results flagged for a closer look

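Of 37 groups of 4 or 5 libraries of a member, 3 held a library far from the others by Dixon's criterion, where chance flags about 1 in 20, or 1.85 groups. Lcn2 in RYGB WAT replicate 4 was at 23.7 CPM, with the nearest library at 2.3 CPM (gap over range 0.94 on the log2 scale). Hpx in sham WAT replicate 4 was at 5.5 CPM, with the other libraries all at 1.1 CPM (gap over range 1.0). Lcn2 in sham jejunum replicate 3 was at 0.2 CPM, with the others at 0.1 CPM (gap over range 1.0), which is 1 rounding step of the table.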

How the results depend on the processing

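The number of members called in the liver was 2, and it was 1 with median-ratio scaling and 1 with the lane as a covariate, where Lcn2 lost its call. It was between 1 and 3 when 1 library was left out, and 3 when RYGB replicate 2 and sham replicate 1 were both left out, an alternative chosen after seeing the data. The number in the jejunum was 3, and 1 with a mean of at least 10 CPM, because only Saa1 was then tested, Saa3 and Lcn2 having been listed through the RYGB samples alone. The counts in the other tissues were 0 in every alternative that could be run. The log2 fold change of Orm1 in the liver was reversed with median-ratio scaling (-0.003) and ranged from -0.185 to 0.402 when 1 library was left out. That of Hp in muscle ranged from -1.072 to 0.281 over such fits, and that of Lcn2 in WAT ranged from -0.372 to 0.658. Hp in muscle was also reversed with the lane as a covariate (1.041). That fit rests on replicates 1 and 2 of each group and gives sham replicate 3 no weight. Why single libraries moved these values was not tested. With a replicate block, which pairs equal numbers, the liver count was 2 and the jejunum count 3, and no member's call changed. The next counts leave out the fits without both RYGB replicate 2 and sham replicate 1, in which Hp gained a call in the liver (adjusted p = 0.0388, limma). Over the 20 member results, 130 of 134 values under other settings and 148 of 159 values without 1 library kept their direction and their side of the threshold. Part of the former agreement was fixed in advance. The setting of adjusted p alone leaves the fold change and adjusted p of a gene unchanged, and no minimum CPM leaves its fold change unchanged. Lane could not be fitted in the ileum, where it coincides with surgery, and all duodenum libraries shared 1 lane. A library alone on its lane carries no weight in the lane fit. This holds for RYGB replicate 2 in the jejunum and for RYGB replicate 1 and sham replicate 3 in WAT. Rounding to 0.1 CPM limits genes under about 1 CPM.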
